A study of Triticum aestivum with 96 samples.

Results

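By their mean counts, the genes described here were nearly silent in senescent flag leaves of bread wheat and expressed at a higher level in mature ones. They were chosen by 2 thresholds on the deposited counts, a mean under 10 over the 48 senescent libraries and a mean of at least 50 over the 48 mature libraries. Of 139118 genes in the table, 142 passed both, and all 142 were kept because the list was limited to 150. The difference in level between the stages chose these genes, so it is described below without a test. Their rhythm, their drift over time, their chromosomes and their neighbours were not used in the choice. The mature mean of the same libraries was, and a few high libraries are enough to lift such a mean over 50.

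Whole flag leaves of the Australian cultivar Mace were sampled at a senescent stage, with visible loss of chlorophyll, and at a mature stage, around ear emergence. Both stages grew in 1 room under 12 h of light at 20 °C and 12 h of dark at 15 °C. From a dawn called Zeitgeber time 0 (ZT0, in hours) both were then kept in continuous light at 20 °C, and leaves were taken every 2 h from ZT45 to ZT91. Each of the 24 time points has 2 libraries per stage, each made from the pooled RNA of 2 leaves of separate plants. The stages were sown 28 days apart, so stage and sowing cannot be told apart. All 96 libraries come from this cultivar, and the labels name no allele or agent.

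The flag leaf is the last leaf below the ear and a main source of sugar and nitrogen for the grain. In leaf senescence the chloroplasts are dismantled, the nitrogen of their proteins is moved to the grain, and genes of photosynthesis and growth are commonly turned down. In continuous light a transcript that still cycles with a period near 24 h does so without the daily change of light, which is the usual sign of the circadian clock. Bread wheat is a hexaploid that carries the A, B and D subgenomes, so most genes have near-identical relatives, called homoeologues, on the corresponding chromosomes of the other subgenomes. A homoeologous group is a set of such corresponding chromosomes, as 6A, 6B and 6D.

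The identifiers are those of the annotation of Mace. Of all 139118, 0 were found in the reference gene table of the cultivar Chinese Spring. The genes are therefore given by identifier, without names or roles, and no pathway or cell type markers could be read. The letters after TraesMAC give the chromosome. The deposited counts are scaled, in that nearly all values of a library are whole multiples of 1 value, that of a single read. This value ran from 0.516 to 1.17 in senescent libraries and from 0.769 to 1.43 in mature libraries. Dividing the total by that number gives 4789055 to 11831482 reads per senescent library and 5315522 to 9280643 per mature library. A scaled count near 1 thus stands for about 1 read, and values of a few units carry large counting error. Where homoeologues or tandem copies share reads, the counting may have split them unevenly, and the strand used in counting is not given in the sources used here.

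Together the 142 genes took up a median of 0.00788% of the counts of a senescent library and 0.284% of those of a mature library. Their summed scaled count ran from 246 to 1897 in senescent libraries (median 486.1) and from 9524 to 94091 in mature libraries (median 21639). The mean of log2(scaled count + 2) over the genes ran from 1.64 to 3.15 in senescent libraries (median 2.11) and from 5.18 to 7.76 in mature libraries (median 6.30). No senescent library reached the lowest mature library in that mean. In whole leaves, fewer cells of a type and less RNA per cell cannot be told apart. A single gene had a mean scaled count between 0.0381 and 9.84 in senescent leaves (median 3.64) and between 50.04 and 1469 in mature leaves (median 87.5). Per length, the median was 0.368 FPKM in senescent leaves and 11.5 FPKM in mature leaves, where the genes ran from 2.38 to 176 FPKM.

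**Figure D1:**
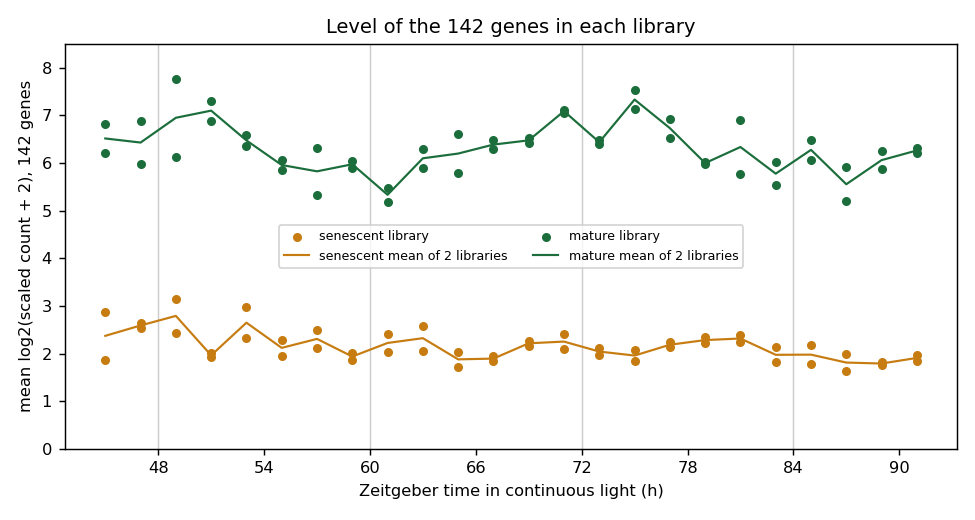
Mean of log2(scaled count + 2) over the 142 genes in each library against Zeitgeber time, with senescent libraries in orange and mature libraries in green; lines join the means of the 2 libraries. Senescent libraries sit between 1.64 and 3.15 and mature libraries between 5.18 and 7.76, with mature highs at ZT51 and ZT75.

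The silence was not complete. In senescent libraries 96 of the 142 genes reached 10 at least once, 18 were never at 0, and 33 were at 0 in at least 24 libraries. In mature libraries 68 fell below 10 at least once and 27 were at 0 at least once. For 49 of the 142 genes, or 34.5%, every mature library was above every senescent one, which held for 0.714% of the 22408 genes with a mature mean of at least 50. The choice of genes used this contrast, so nothing is read from that share.

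The senescent library of ZT49 replicate 2 stood highest, with a mean log2 of 3.15 and 63 of the 142 genes at 10 or above, against a median of 11.5 genes per senescent library. It held the senescent maximum of 30 genes. ZT53 replicate 2 followed at 2.97 with the maximum of 19, and ZT45 replicate 1 at 2.88 with the maximum of 21. A further 2056 genes had a mean log2 lower in senescent leaves by at least 1. Their median excess over the senescent mean was 0.47 in ZT49 replicate 2, 0.32 in ZT53 replicate 2 and 0.48 in ZT45 replicate 1. The highest senescent value was 0.48, in ZT47 replicate 2. ZT47 replicate 1 (0.40) and ZT61 replicate 2 (0.34) lay above ZT53 replicate 2, with lower mean log2 over the list (2.53 and 2.41). In mature libraries this excess lay between 1.30 and 1.88. Without ZT49 replicate 2, 145 genes passed the thresholds and all 142 stayed. Of the mature libraries, ZT49 replicate 1 was highest, at a mean log2 of 7.76 with the maximum of 22 genes, while its partner ZT49 replicate 2 was at 6.14. Without it 138 genes passed, of which 136 were in the list.

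Just inside the thresholds lay TraesMAC6D03G03767120, at 9.84 in senescent and 53.5 in mature leaves, and TraesMAC4D03G02558310, at 0.067 in senescent and 50.04 in mature leaves. Just outside lay TraesMAC2D03G01082310, at 10.11 in senescent and 117.0 in mature leaves, and TraesMAC5A03G02786300, at 5.14 in senescent and 49.93 in mature leaves.

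The 6 genes with the largest difference were at the level of a few reads in most senescent libraries and far higher in every mature one. TraesMAC5A03G02564440 ran from 0 to 40.3 in senescent libraries (median 2.06) and from 144.9 to 7153 in mature libraries (median 910.002), a difference in mean log2 (mature minus senescent) of 7.77. TraesMAC7D03G04419510 ran from 0 to 9.85 in senescent libraries (median 1.59) and from 66.2 to 7700.35 in mature libraries (median 782). TraesMAC5D03G03026760 ran from 0 to 14.5 in senescent libraries (median 1.93) and from 74.6 to 7184 in mature libraries (median 673). The groups did not overlap for any of these. TraesMAC4A03G02118560 ran from 0 to 14.8 in senescent libraries (median 1.51) and from 152 to 3292 in mature libraries (median 647). TraesMAC7D03G04279740 ran from 0 to 80.3 in senescent libraries (median 4.01) and from 117 to 6852 in mature libraries (median 913). TraesMAC4A03G02196530 ran from 0 to 12.9 in senescent libraries (median 0.946) and from 73.9 to 4035 in mature libraries (median 334). These last groups did not overlap either; the value of 80.3 in TraesMAC7D03G04279740 lay at ZT45 replicate 1.

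Per length the highest mature level was that of TraesMAC3D03G01987460, at 176 FPKM in mature leaves and 20.97 FPKM in senescent leaves. Its scaled counts were far from the highest, from 1.75 to 15.4 in senescent libraries (median 8.07) and from 32.2 to 99.8 in mature libraries (median 63.3). TraesMAC7D03G04279740 followed at 152 FPKM, then TraesMAC4D03G02451380 at 116 FPKM and TraesMAC7D03G04419510 at 109 FPKM in mature leaves. The ratio of scaled count to FPKM, which rises with the length used by the authors, had a median of 0.760 in the 142 genes (quartiles 0.571 and 1.04), relative to a median of 1 in all genes tested (quartiles 0.671 and 1.43).

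The highest single senescent values were those of TraesMAC7D03G04279740 above and of 2 further genes. TraesMAC2D03G01282640 ran from 0 to 94.9 in senescent libraries (median 0.958) and from 24.95 to 2339 in mature libraries (median 368). TraesMAC2A03G00795280 ran from 0 to 93.6 in senescent libraries (median 2.02) and from 60.5 to 2691 in mature libraries (median 610.04). For both, the highest senescent value was above the lowest mature one. It lay at ZT49 replicate 2 for the D gene and at ZT53 replicate 2 for the A gene, which are among the libraries that stood high above.

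In mature leaves a larger share of the 142 genes than of all genes was called rhythmic, and the swings of those called were larger. A 24 h cosine and sine with a linear term were fitted to log2(scaled count + 2) of the 48 mature libraries for all 42218 genes with a mature mean of at least 10. The limma test at a Benjamini-Hochberg adjusted p under 0.05 called 49.7% of all genes rhythmic, and 57% of those with a mature mean of at least 50. It called 98 of the 142 genes, or 69.01%. From trough to peak these 98 spanned a median of 2.16 log2 (quartiles 1.37 and 3.07), beside 0.72 over all rhythmic genes and 0.63 over rhythmic genes with a mean of at least 50. In the 44 genes not called the median was 0.61. The scatter about the fit was also larger in the list (given below), and a call then needs a larger swing. A rhythm of 1 log2 or more from trough to peak was called in 14.2% of all genes and in 88 of the 142, or 62.0%. A difference of 2 log2 or more was reached by 52 of the 142, or 36.6%, and by 3.04% of all genes. None of the 142 entered a fit in senescent leaves, where their mean was under 10, so no rhythm in senescent leaves is given.

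The peaks gathered around the former dawn. Of the 98 rhythmic genes, 53 (54.1%) peaked from 22 to 2 h after a former dawn, beside 15.9% of all rhythmic genes and 19.4% of those with a mean of at least 50. A second, smaller group of 26 (26.5%) peaked from 4 to 10 h, where 31.9% of all rhythmic genes peaked. From 10 to 22 h there were 16 of the 98, and 48.9% of all rhythmic genes. The dawn group had the larger swings, with a median peak-to-trough difference of 2.69 against 1.58 in the group of 4 to 10 h and 1.44 in the other 19. In 15 rhythmic genes the fitted trough fell below a scaled count of 10, and 14 of these were in the dawn group, so that at their trough the mature leaf too was nearly silent for them.

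**Figure D2:**
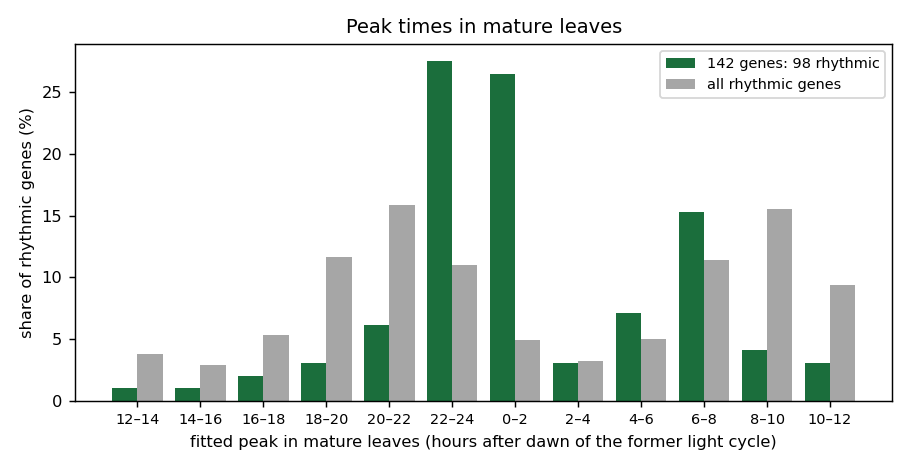
Share of rhythmic genes whose fitted 24 h peak in mature leaves fell in each 2 h bin, in green for the 98 rhythmic genes of the list and in grey for all rhythmic genes. The bins 22–24 h and 0–2 h hold 27.6% and 26.5% of the listed genes, against 11.04% and 4.88% of all rhythmic genes.

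For part of the list the rhythm was called in each replicate alone, and in each cycle alone. Fitted to replicate 1 alone, 78 of the 142 genes were called (54.9%; 30.6% of all genes), and 74 were called in replicate 2 alone (52.1%; 28.8% of all genes). In each replicate alone 59 genes were called, or 41.5%, beside 21% of all genes. The peaks of these 59 in the 2 replicates lay a median of 0.614 h apart and at most 2.62 h, with 55 under 2 h. A call in each replicate favours close peaks, and the gap was not taken over all genes, so nothing is read from it. In the first 24 h 86 genes were called (60.6%; 45.5% of all genes) and in the second 24 h 82 (57.7%; 31.9% of all genes), of which 60 (42.3%) were called in both, beside 23.5% of all genes. From trough to peak the 98 genes spanned a median of 2.34 log2 in the first cycle and 1.87 in the second, and 30 of them had the larger value in the second. These values were not taken over all rhythmic genes, so no change particular to the list is read from them. The period with the smallest residual, sought from 18 to 32 h, had a median of 24.6 h among the 98 (quartiles 23.25 and 25.9 h), and 4 lay at an end of that range.

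The 6 genes with the smallest p covered several times of day. TraesMAC2A03G00809510 ran from 0 to 26.6 in senescent libraries (median 3.84) and from 2.92 to 240.0 in mature libraries (median 57.4). In mature leaves it averaged 170.0 ± 78.5 at 1 h after a former dawn and 12.8 ± 7.63 at 13 h (SD, n = 4 libraries over both cycles), and the fit gave a peak at 1.203 h and a peak-to-trough difference of 3.17 ± 0.22 (SE; limma adjusted p = 8.0e-17). Every library at 1 h was above every library at 13 h.

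TraesMAC2B03G00952350 ran from 0 to 36.4 in senescent libraries (median 5.35) and from 5.70 to 178.9 in mature libraries (median 46.6). In mature leaves it averaged 120.1 ± 40.0 at 23 h and 11.01 ± 3.95 at 11 h (SD, n = 4), with a fitted peak at 21.2 h and a difference of 3.33 ± 0.24 (SE; limma adjusted p = 8.0e-17). TraesMAC5D03G03197020 ran the other way round the day. It ran from 0 to 21.3 in senescent libraries (median 1.67) and from 3.93 to 327 in mature libraries (median 60.97), and in mature leaves averaged 249.8 ± 88.1 at 11 h and 15.7 ± 5.47 at 23 h (SD, n = 4). Its fitted peak was at 11.3 h, with a difference of 3.77 ± 0.27 (SE; limma adjusted p = 1.0e-16).

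TraesMAC1D03G00475860 and TraesMAC5B03G02997890 peaked in the former day. TraesMAC1D03G00475860 ran from 0.736 to 20.7 in senescent libraries (median 5.41) and from 3.84 to 182 in mature libraries (median 45.9), with a mature peak at 8.44 h and a difference of 2.46 ± 0.21 (SE; limma adjusted p = 4.4e-14). TraesMAC5B03G02997890 ran from 0 to 52.0 in senescent libraries (median 3.89) and from 8.75 to 353 in mature libraries (median 101), with a mature peak at 7.40 h and a difference of 3.40 ± 0.30 (SE; limma adjusted p = 1.4e-13). The remaining gene of the 6, TraesMAC6B03G03466810, belongs to a run of neighbours described below. For all 6 the lowest mature libraries overlapped the senescent range.

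**Figure D3:**
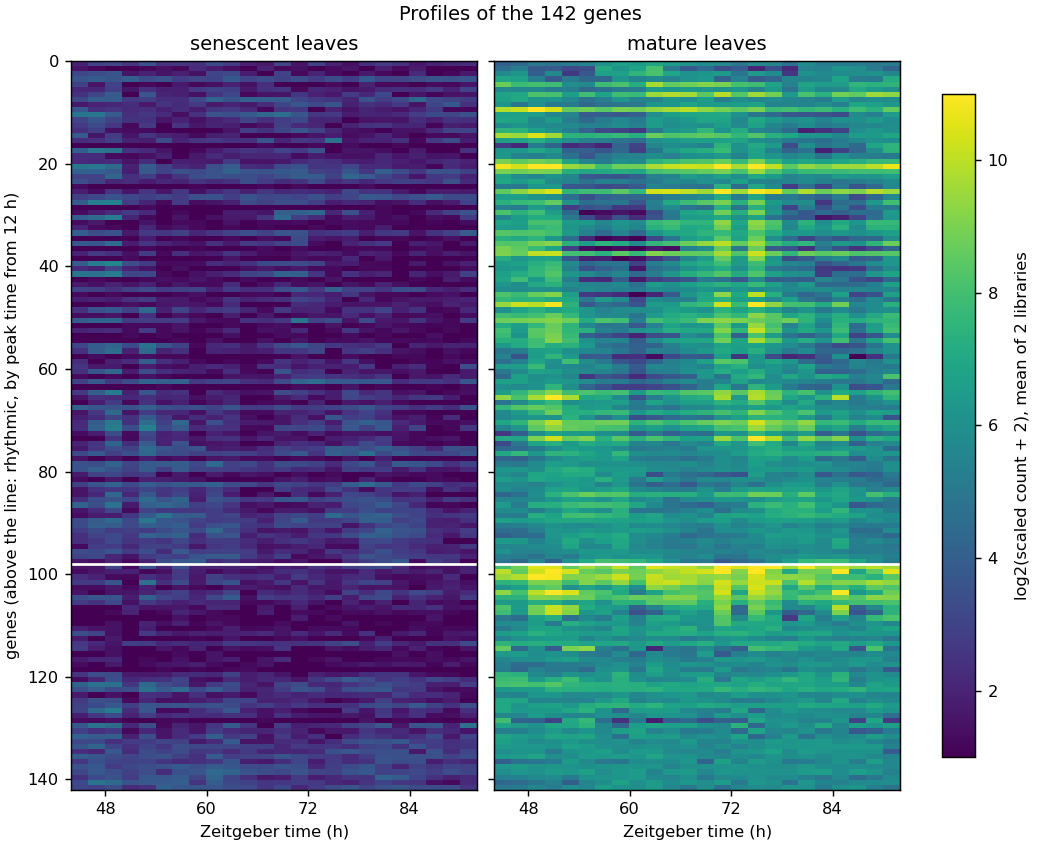
Mean log2(scaled count + 2) of the 2 libraries at each Zeitgeber time (x axis, h) for each of the 142 genes (1 row each), in senescent leaves on the left and mature leaves on the right; brighter colours are higher. Above the white line are the 98 rhythmic genes, ordered by peak time from 12 h on, and below it the other 44, ordered by the size of the stage difference; bright bands at ZT49 to ZT51, ZT71 and ZT75 run across many rows of the mature panel.

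Beyond the fitted rhythm and drift, these genes also varied between libraries and between time points. The residual SD of the fit on the log2 scale had a median of 0.915 (quartiles 0.639 and 1.22), beside 0.365 over all genes tested and 0.286 over those with a mean of at least 50. In the 44 genes with no rhythm called it had a median of 0.946. Part of this variation was shared between the genes of a library, and at ZT73 by both libraries of the time point. At ZT73 the mean log2 over the 142 genes was 6.39 and 6.48 in the 2 mature libraries, below the 7.06 and 7.12 of ZT71 and the 7.13 and 7.53 of ZT75. The mature library with the fewest reads was ZT73 replicate 1. Its partner, ZT73 replicate 2, had 6040900 reads, beside 5838008 and 6034947 in the mature libraries of ZT71. The part of depth in this dip was not tested.

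The genes with the largest spread in mature leaves were near 0 in senescent leaves. TraesMAC3D03G01911570 ran from 0 to 4.91 in senescent libraries (median 0) and from 0 to 2385 in mature libraries (median 73.4). It averaged 1263 ± 1118 at 3 h and 10.25 ± 16.1 at 15 h in mature leaves (SD, n = 4), with a fitted difference of 6.64 ± 0.82 (SE; limma adjusted p = 1.1e-08), the largest of the 142. TraesMAC7D03G04279780 ran from 0 to 1.13 in senescent libraries (median 0) and from 0 to 1266 in mature libraries (median 12.7), with a difference of 6.24 ± 0.81 (SE; limma adjusted p = 2.1e-08) and a peak at 23.7 h. TraesMAC2D03G01089140 ran from 0 to 2.28 in senescent libraries (median 0) and from 0 to 5450 in mature libraries (median 106.7), and no rhythm was called (limma adjusted p = 0.098).

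The 3 with the smallest spread were steady. TraesMAC3D03G01987460, given above, had an SD of 0.33 on the log2 scale over the 48 mature libraries. TraesMAC6B03G03473980 ran from 1.89 to 31.1 in senescent libraries (median 8.55) and from 30.5 to 118 in mature libraries (median 74.1), with an SD of 0.41. TraesMAC5A03G02782010 ran from 0 to 6.83 in senescent libraries (median 1.69) and from 27.4 to 132.5 in mature libraries (median 62.02), also with an SD of 0.41. None of these was called rhythmic (limma adjusted p of 0.609, 0.108 and 0.594).

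A linear change from ZT45 to ZT91 was called in mature leaves for 20 of the 142 genes, or 14.1%, beside 4.33% of all genes tested and 5.65% of those with a mature mean of at least 50. Of these 20, 8 rose (1.58% of all genes did) and 12 fell (2.75% of all genes did). Rhythm was also called in 16 of the 20, beside 69.01% of the 142, and no link between drift and rhythm is read from that. All 20 had the same sign in each replicate alone. Their choice by the fit to both replicates favours this, so nothing is read from it. The count of rises depended on single libraries, with 4 left without ZT47 replicate 1 and 5 without ZT49 replicate 2, ZT59 replicate 1, ZT61 replicate 1 or ZT77 replicate 2, while falls numbered 9 to 13 with each library left out. The calls needed both replicates, since the fit without replicate 1 called 1 of the 142 and 28 genes in all, and the fit without replicate 2 called 6 of the 142 and 247 in all. The median drift of the 142 was 0.17 on the log2 scale over the 46 h and the median of its size was 0.55, beside 0.17 for the size over all genes.

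The falling genes with the smallest p were highest between ZT45 and ZT51. TraesMAC2D03G01303220 ran from 0.619 to 45.4 in senescent libraries (median 5.79) and from 38.3 to 437 in mature libraries (median 129). In mature leaves it was at 267.5 and 245.3 at ZT45 and at 75.8 and 97.96 at ZT91, a drift of −1.50 ± 0.20 on the log2 scale (SE; limma adjusted p = 5.1e-06). TraesMAC4D03G02440560 ran from 0 to 37.4 in senescent libraries (median 0.893) and from 35.0 to 1825 in mature libraries (median 220), with a drift of −2.62 ± 0.36 in mature leaves (SE; limma adjusted p = 5.5e-06). TraesMAC4B03G02261090, on the corresponding B chromosome, ran from 0 to 40.7 in senescent libraries (median 2.13) and from 110.009 to 2817 in mature libraries (median 461), with a drift of −2.31 ± 0.34 in mature leaves (SE; limma adjusted p = 2.7e-05). The profiles of these last 2 genes correlated at r = 0.929 over the 48 mature libraries. Their replicates lay far apart at both ends. In mature leaves TraesMAC4D03G02440560 was at 1825 and 374 at ZT45 and at 47.4 and 292 at ZT91. TraesMAC4B03G02261090 was at 1648 and 522 at ZT45 and at 145 and 1010 at ZT91. TraesMAC4A03G02118560, among the 6 largest stage differences above, fell as well, by 1.70 (limma adjusted p = 0.0058).

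The residual SD was 1.77 and 1.70 in TraesMAC3B03G01605090 and TraesMAC2D03G01082480, the rising genes with the smallest p. It was 0.64 in the third, TraesMAC2A03G00698820, beside 0.41, 0.74 and 0.71 in the 3 falling genes with the smallest p. TraesMAC3B03G01605090 ran from 0 to 1.17 in senescent libraries, at 0 in 44 of the 48, and from 0 to 465 in mature libraries (median 29.0). In mature leaves it was at 7.6 and 2.3 at ZT45 and at 141 and 218 at ZT91, yet also at 398 in ZT49 replicate 1, where replicate 2 was at 1.0; its drift was 4.31 ± 0.86 (SE; limma adjusted p = 0.0014). TraesMAC2D03G01082480 ran from 0 to 8.97 in senescent libraries (median 0.868) and from 0 to 583 in mature libraries (median 43.6), with a drift of 3.99 ± 0.82 (SE; limma adjusted p = 0.0019). TraesMAC2A03G00698820 ran from 0 to 23.5 in senescent libraries (median 6.85) and from 9.99 to 240 in mature libraries (median 66.2), with a drift of 1.40 ± 0.31 (SE; limma adjusted p = 0.0042). None of the 3 rises passed in replicate 1 alone, and of the 6 drifts named here that of TraesMAC3B03G01605090 alone passed in replicate 2. The 3 falls passed in replicate 1 alone.

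The list held more genes of subgenome D than of A. Of the 142, 35 (24.6%) lay on A, 49 (34.5%) on B and 58 (40.8%) on D chromosomes, while the genes with a mature mean of at least 50 were spread at 33.3%, 33.3% and 33.4%. Per 1000 such genes that is 4.69 on A, 6.56 on B and 7.75 on D. No test was made, since genes that share runs and homoeologues are not independent. Chromosome 2D held the most, with 13, followed by 1B and 1D with 10 each, while 7A held 1 and both 1A and 7B held 2. By homoeologous group, group 7 held 9 (6.34%, beside 13.4% of the genes with a mean of at least 50) and group 2 held 29 (20.4%, beside 16.3%). Rhythm was called least often in group 4, in 9 of 22 genes (40.9%, beside 57.8% of its genes with a mature mean of at least 50). In group 6 it was called most often, in 15 of 17 (88.2%, beside 59.0%). Those 17 include 4 neighbours on 6B and 2 on 6A, all rhythmic and alike in profile, so they are not independent. By subgenome it was called in 24 of 35 on A (68.6%, beside 56.6%), 36 of 49 on B (73.5%, beside 56.5%) and 38 of 58 on D (65.5%, beside 57.9%).

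**Figure D4:**
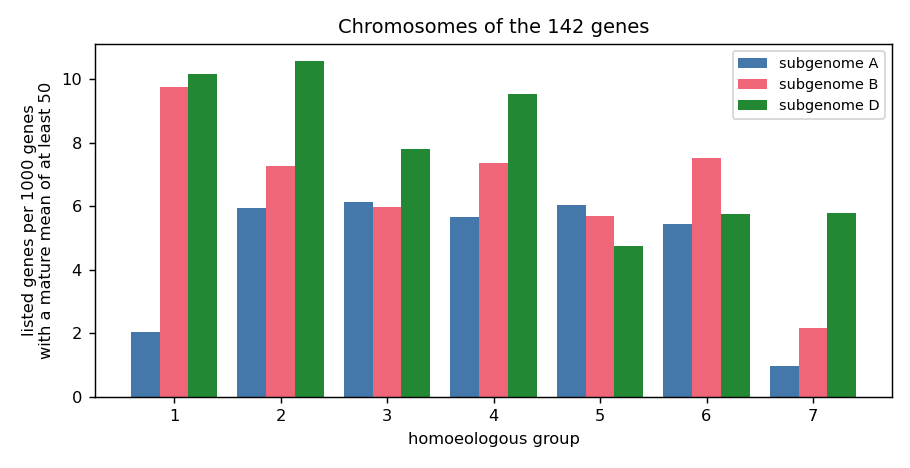
Genes of the list per 1000 genes with a mature mean of at least 50, by homoeologous group (x axis) and subgenome (colour). The highest bar is 2D at 10.6 and the lowest 7A at 0.965.

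Part of the list lay in runs of neighbouring identifiers. With at most 5 places between successive genes of a chromosome, 30 of the 142 genes (21.1%) formed 13 runs, 1 of 4 genes, 2 of 3 genes and 10 of 2. Counting only immediate neighbours left 22 genes in 10 runs, and allowing 10 places gave 36 in 15. Over the 48 mature libraries the profiles of the 22 pairs within a run correlated with a median r of 0.912, and 19 of them (86.4%) were over 0.8. Among the other 9989 pairs of the list the median r was 0.144 and 2.12% were over 0.8. Among 21459 pairs of other genes at most 5 places apart, both with a mature mean of at least 50, the median was 0.033 and 1.63% were over 0.8. The pairs share libraries and may share reads. When only the difference between the 2 replicates of each time point was compared, which carries no rhythm or drift, the median r within a run was 0.869.

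The longest run, on 6B, held 4 genes with fitted peaks between 23.4 and 0.077 h and mutual r from 0.901 to 0.947. TraesMAC6B03G03466810 ran from 0 to 42.9 in senescent libraries (median 1.11) and from 0 to 196 in mature libraries (median 24.15). In mature leaves it averaged 118.6 ± 57.6 at 23 h and 3.41 ± 4.25 at 13 h (SD, n = 4), a fitted difference of 4.77 ± 0.37 (SE; limma adjusted p = 2.5e-15). TraesMAC6B03G03466900 ran from 0 to 58.6 in senescent libraries (median 3.03) and from 3.13 to 801 in mature libraries (median 93.3), with a difference of 4.49 ± 0.42 (SE; limma adjusted p = 1.0e-12). The other two, TraesMAC6B03G03466920 and TraesMAC6B03G03466930, reached 59.4 and 47.7 in senescent libraries and 343 and 486 in mature libraries, with differences of 3.42 and 3.42. For all 4 the highest senescent value, at ZT47 or ZT49, was above the lowest mature one. Their nearest relative in profile outside the run was TraesMAC6A03G03265810 on the corresponding A chromosome, itself in a run of 2, with r = 0.958 to TraesMAC6B03G03466900 and 0.937 to TraesMAC6B03G03466920. It ran from 0 to 38.8 in senescent libraries and from 23.98 to 1258 in mature libraries.

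The run on 1B held 3 genes, with mutual r from 0.908 to 0.982 and peaks between 2.46 and 4.16 h. TraesMAC1B03G00371610 ran from 0 to 56.9 in senescent libraries (median 3.40) and from 63.04 to 1732 in mature libraries (median 368). TraesMAC1B03G00371620 ran from 0 to 26.4 in senescent libraries (median 1.70) and from 24.6 to 736 in mature libraries (median 159), and TraesMAC1B03G00371640 from 0 to 9.08 in senescent libraries (median 0) and from 12.3 to 387 in mature libraries (median 72.8). All 3 had their highest senescent value at ZT49 replicate 2 and their highest mature value at ZT75 replicate 2. The gene on their other side, TraesMAC1B03G00371600, is not in the list because its senescent mean was 28.9, with a mature mean of 873.

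The run on 2D held TraesMAC2D03G01089100, TraesMAC2D03G01089140 and TraesMAC2D03G01089160, with mutual r from 0.889 to 0.960. Their highest senescent values were 2.27, 2.28 and 1.83, while in mature libraries they ran from 0 to 1424, 5450 and 2120. The fits placed their peaks between 1.11 and 1.28 h, and TraesMAC2D03G01089100 and TraesMAC2D03G01089160 were called rhythmic (limma adjusted p of 0.047 and 0.00083). At several time points the 2 replicates differed widely. At ZT57, TraesMAC2D03G01089140 was at 682 in replicate 1 and 14.4 in replicate 2, and at ZT51 at 5450 and 253. TraesMAC4D03G02451380, on another chromosome, followed it with r = 0.961, at 2279 and 33.6 at ZT57 and at 10187 and 647 at ZT51.

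**Figure D5:**
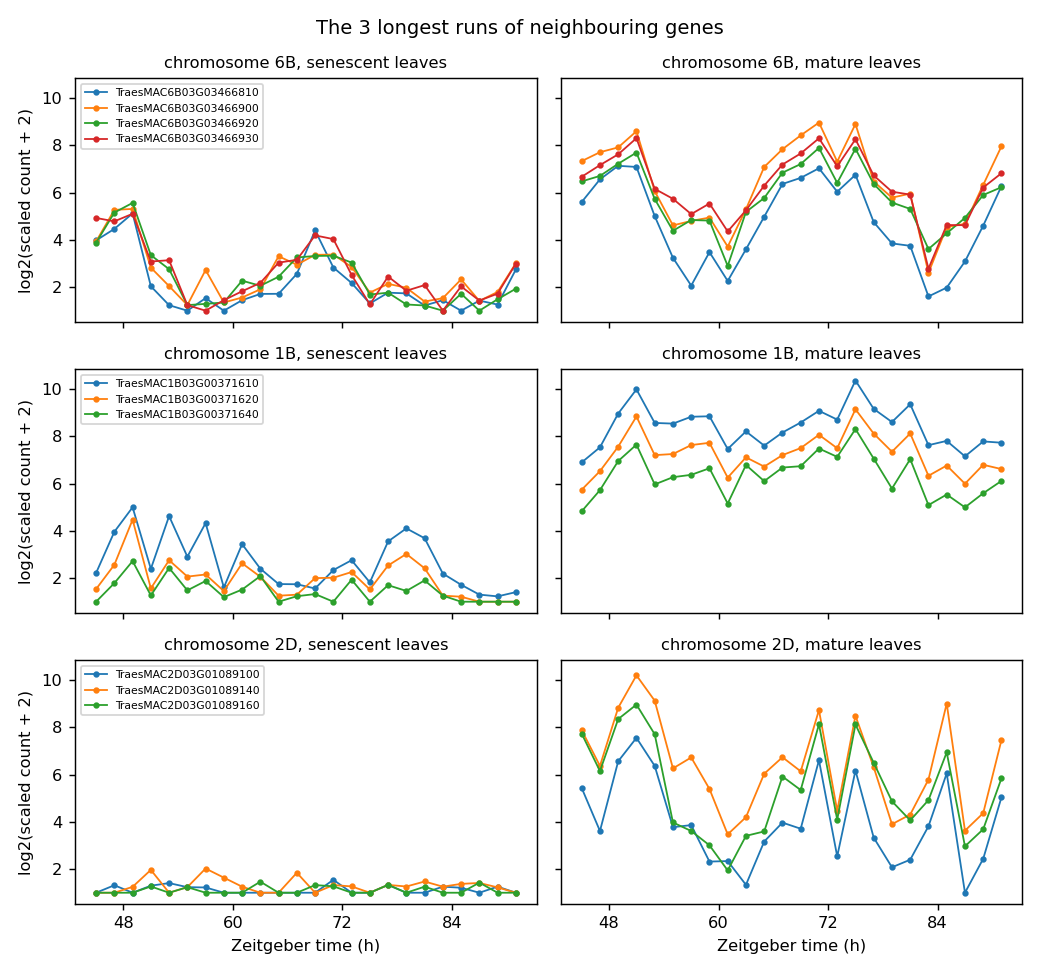
Mean log2(scaled count + 2) of the 2 libraries at each Zeitgeber time for the genes of the 3 longest runs, on 6B (top), 1B (middle) and 2D (bottom), in senescent leaves on the left and mature leaves on the right. Within each run the mature curves rise and fall together, and the 6B genes also show senescent highs of 5.1 to 5.6 near ZT49.

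High likeness also linked some genes on corresponding chromosomes. The gene of the list most like a given gene in profile lay on another chromosome of the same homoeologous group for 56 of the 142 (39.4%), although only 9.92% of all pairs are of that kind. It lay in the same run for 16, elsewhere on the same chromosome for 3 and in another group for 67. Of the pairs between corresponding chromosomes 54 of 993 (5.44%) had r over 0.8, and of pairs between groups 1.75% did. The median r was 0.145 for pairs of either kind, so the difference lay in the pairs of high r, which may share reads. In 49 genes at least 1 partner with r over 0.8 lay on a corresponding chromosome, and 21 genes had such partners on both. The closest set of 3, 1 per subgenome, was TraesMAC2A03G00723290, TraesMAC2B03G00965810 and TraesMAC2D03G01207250, with r from 0.933 to 0.979. Their highest senescent values were 2.56, 4.91 and 2.27, and their mature medians 89.02, 150.4 and 131.8. They peaked at 1.01, 0.849 and 1.19 h, with differences of 3.11, 2.56 and 3.10. Of the largest stage differences above, TraesMAC5A03G02564440 and TraesMAC5D03G03026760 formed such a set with TraesMAC5B03G02790260, with r from 0.898 to 0.961. The closest pair of all was TraesMAC4D03G02451380 and TraesMAC4A03G02105810, with r = 0.983. The files do not pair identifiers as homoeologues, so likeness of profile is all that is given.

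Among the genes next to the list, a larger share than among all genes was lower in senescent leaves. Within 5 places lay 1252 other genes, of which 400 had a mean of at least 10 over all libraries and were tested for the stage difference. At least 1 log2 lower, with an adjusted p under 0.05 in limma, were 65 of the 400 (16.25%), beside 5.18% of all genes tested, and 27 (6.75%) were higher by at least 1 log2, beside 4.74%. The median difference (senescent minus mature, log2) of the 400 was −0.08, and 0.005 over all genes. At any size, 183 of the 400 (45.75%) were called lower and 129 (32.25%) higher, beside 34.6% and 35.2% of all genes tested. By distance, the share lower by at least 1 log2 was 26 of 81 (32.1%) at 1 place, 15 of 86 (17.4%) at 2, 11 of 77 (14.3%) at 3, 5 of 73 (6.85%) at 4 and 8 of 83 (9.64%) at 5 places. The neighbour with the lowest value was TraesMAC1B03G00276490, with a mean scaled count of 76.3 in senescent leaves and 5164 in mature leaves, a difference of −6.83 (limma adjusted p = 4.4e-56). TraesMAC6A03G03265790, beside the pair on 6A, had 10.7 in senescent leaves and 249 in mature leaves and missed the list by its senescent mean.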

How the data were processed

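RNA-seq counts of 96 libraries were analysed. Per the labels' protocols, pooled leaf RNA was made into NEBNext Ultra libraries by a commercial provider. The submitters' processing notes name bcl2fastq 2.17, STAR, Cufflinks and Cuffnorm, and the build and annotation release are not given in the sources used here. The deposited counts are signal values, read counts that the authors scaled by 1 factor per library (at least 99.89% of a library's values were whole multiples, within 0.02 read). The deposited FPKM values carry the same factor and served for levels per length. A second deposited table repeats the 48 senescent columns, with 0 differing values, and 0 per-sample columns were left unused.

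The fits used limma 3.58.1 in R 4.3.3 (trend of the variance) on log2(scaled count + 2), a scale that understates changes of low genes. The filter was a mean of at least 10, and calls needed an adjusted p under 0.05 (Benjamini-Hochberg, over all genes that passed the filter). Rhythm and drift came from 1 fit per gene (cosine, sine and a linear term), and the stage difference from a fit to both stages with these terms in each. The design foresaw a count test as an alternative, but the values are not whole counts. Scripts in Python 3.11.15 and R were tested on simulated data. The p-values rest on the scatter of libraries about the fitted curve. That scatter mixes the spread between leaf pools with any departure of the time course from the curve. Replicates differed by more than sampling noise (lowest chi-square per gene 2.42 in senescent and 2.74 in mature leaves). Mature replicates differed most at ZT45 and ZT91 (28.1 and 24.0), the ends of the drift fit, beside at most 10.8 at other times.

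Genes were named by rule: the 6 largest stage differences, 4 highest mature FPKM, 6 smallest rhythm p, 3 smallest drift p each way, the longest runs, those nearest the thresholds, the 3 highest senescent values and the 3 smallest and largest spreads. Genes named as neighbours, partners or members of the third run were chosen after their values were seen. The list and these rules were chosen with earlier results of these data known.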

Additional observations from a re-analysis of the deposited data

How the results depend on the processing

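The rhythm of the list held under the alternatives tried. Between 91 and 101 genes were called under other pseudocounts, filters, scalings, periods and FPKM, 93 to 103 with each mature library left out in turn, and 74 to 78 without a whole replicate. Scaling each library to its total, which moves the median stage difference of all genes by 0.24 on the log2 scale, left 101 rhythmic genes with 45.5% of peaks from 22 to 2 h, and 125 of the 142 genes in the list. Drift calls numbered 16 to 23 with each mature library left out, but 1 without replicate 1 and 6 without replicate 2, and 15 (2 up, 13 down) without the cosine and sine. Within 5 places the share of lower neighbours was 13.5 to 17.25% under other settings. It was 32.1% at 1 place, where fewer genes were tested, and 11.1% of 749 genes within 10 places. The named rhythms passed under all settings run, and 10 of the other settings of named drifts missed the threshold with the same sign. With a replicate block, 98 genes were rhythmic, 19 drifted and 16.25% of neighbours were lower. The shared numbers were not treated as pairing the stages. Same-numbered deviations correlated at a median r of 0.011 over 24 time points (from −0.347 to 0.281), which cannot show whether handling was shared. Leaving out replicate 1 or 2 changed the list to 138 or 145 genes, with 129 and 137 shared. A count test on recovered reads was not run. Depth limits the senescent values, where a few reads per gene remain. The leave-one-library-out settings and the lists without a ZT49 library were added after seeing the data.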
